A study of Mus musculus with 66 samples.

Results

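The authors' list of Nr5a2 binding regions in mouse embryonic stem (ES) cells holds 35266 peaks, each with 1 of 4 class codes, and 22970 of them (65.1%, 95% Wilson interval 64.6 to 65.6) carry the code L. The members described here are those 22970 peaks, chosen by that code alone. The other codes are eB with 6398 peaks, dB with 3621 and nB with 2277. The sources used here do not define the codes. The authors made the list, and the classes, from these ChIP-seq libraries, so width and spacing are given as a description with no test. The list gives no signal per library, and binding in mitosis was therefore not compared with binding in interphase.

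The ChIP-seq came from wild-type E14Tg2a ES cells of genotype 129/Ola, in 12 libraries: 3 of Nr5a2 and 3 of input in interphase, and the same in mitosis. RNA-seq came from another line, an E14Tg2a derivative of the same genotype in which auxin triggers degradation of Esrrb and Nr5a2 together. Its 54 libraries form 18 groups of 3, without and with auxin, in asynchronous cells, in mitosis, and after release, at 20, 30 and 40 minutes, at 50 and 60 minutes, and at 90 and 120 minutes. The treatment entry reads ctl for every library, so titles give the arm. No group received auxin without the degradable receptors. Whether the 3 libraries within each group are separate cultures is not stated. The degradation acts on the proteins, so the RNA levels of Esrrb and Nr5a2 do not check it. RNA levels are in TPM, a unit of abundance per transcript length, deposited as 1 mean per group, so no value carries a spread between libraries and whether the libraries of 2 groups overlap cannot be seen. The listed genes summed to 17155 to 49059 TPM per group, far from a full library and unequal between groups, so ratios between stages include differences shared by all listed genes. Of 10 ES cell markers, 9 were in the table and summed to 37.9 to 153 TPM per group. The table held only 2 of 8 fibroblast, 5 of 7 primitive endoderm and 4 of 6 trophectoderm markers. Those present summed to under 1 TPM per list in every group, and the absent markers could not be read. The neural list, with 3 of 4 genes in the table, summed to 2.93 to 11.1 TPM. Sox2 was not used here.

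Nr5a2 is an orphan nuclear receptor that binds DNA as a monomer. Its site is the hexamer AGGTCA with a short extension on the 5′ side, and Esrrb, another orphan nuclear receptor, recognises nearly the same letters. In ES cells both receptors bind enhancers of the naive pluripotency network, which includes Klf2, Klf4, Nanog, Tfcp2l1 and Zfp42. Both have been described as staying on part of their sites through mitosis.

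To show what a class L peak can contain, the letters under peaks at gene starts were read from RefSeq promoter windows of build GRCm38.p6, which span 250 bases before to 50 bases after each start. The sequences below come from 7 of the genes of at least 1 TPM whose start a class L peak covers and whose window holds CAAGGTCA within that peak. Each lies upstream of the RefSeq start of that window, which need not be the outer end of the gene. The sequences of Bcl2l1, Dgcr6 and Ccdc125 lie inside the gene span, and that of Grwd1 crosses its edge. Each is written 5′ to 3′ in the direction of the gene, with the 8 matching letters in capitals. In the sequence of Bcl2l1 they read in the opposite direction, as TGACCTTG.
Scpep1 (chr11:88955554-88955621, minus strand): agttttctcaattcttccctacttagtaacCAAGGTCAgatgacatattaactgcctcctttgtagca
Grwd1 (chr7:45830960-45831027, minus strand): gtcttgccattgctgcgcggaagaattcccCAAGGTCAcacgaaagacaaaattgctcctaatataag
Mrps21 (chr3:95871541-95871608, minus strand): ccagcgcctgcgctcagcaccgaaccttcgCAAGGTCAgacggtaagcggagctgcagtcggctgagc
Bcl2l1 (chr2:152828556-152828623, minus strand): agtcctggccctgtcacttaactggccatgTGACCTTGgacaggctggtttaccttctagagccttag
Dgcr6 (chr16:18066203-18066270, plus strand): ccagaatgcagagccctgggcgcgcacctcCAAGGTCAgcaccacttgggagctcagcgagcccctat
Ccdc125 (chr13:100669305-100669372, plus strand): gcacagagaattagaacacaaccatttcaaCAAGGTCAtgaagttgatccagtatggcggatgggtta
Uqcc3 (chr19:8881034-8881101, minus strand): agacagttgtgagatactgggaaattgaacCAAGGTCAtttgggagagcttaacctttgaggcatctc

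These genes have varied roles. Scpep1 encodes a serine carboxypeptidase, Grwd1 a ribosome biogenesis factor, Mrps21 a subunit of the mitochondrial ribosome, Bcl2l1 an inhibitor of apoptosis and Uqcc3 an assembly factor of respiratory complex III. The peak over the Scpep1 motif was 547 bp wide and that over the Grwd1 motif 592 bp. The motif of Grwd1 lay 70.5 bp from the peak centre, that of Scpep1 138 bp and that of Bcl2l1, in a peak 1181 bp wide, 439 bp. These 7 are the members of a group of 10 such genes whose motif, with 30 bases on each side, lies upstream of the RefSeq start used. In the authors' deposited table, Scpep1 was called lower and the other 6 shown were called not responsive. The 3 not shown, Zfp57, Ttll6 and Tfpi, were called lower there, which makes 4 of 10.

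Over all windows, CAAGGTCA was, of the 9 motifs searched on both strands, the one with the highest ratio of its share in class L windows to that in windows without a peak. It was in 45 of the 1000 windows that class L peaks covered (4.5%, 95% Wilson interval 3.38 to 5.97), in 1.20% of windows without a peak and in 1.53% of all 32619 windows. The share was 6.99% under class eB peaks, 7.61% under dB and 7.14% under nB. The shorter AAGGTCA, which lies within CAAGGTCA, was in 11.9% of class L windows and 4.71% of all windows. The looser CAAGGNCA, which includes CAAGGTCA, was in 12.1% of class L windows. Of the letters searched for other factors, the octamer motif ATTTGCAT of Oct factors was in 2.7% of class L windows and 1.75% of all. The E-box CACGTG was in 6.3% of class L windows, 12.5% of eB windows and 7.20% of all. A match is a description of letters and not a measured site, and a window with no match says nothing of the receptor.

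The matches sat near the middle of the peaks. In class L windows CAAGGTCA occurred 0.321 times per kb within 50 bp of the peak centre, 0.555 times at 50 to 100 bp, 0.177 times at 100 to 200 bp and 0.0185 times at 200 to 400 bp. Windows without a peak held 0.0401 per kb. All 45 matches of class L windows lay inside the peak, over 191907 bases, and 0 lay in the 107193 bases of the same windows outside it. Class eB windows held 0.925 per kb within 50 bp of the centre. The share of class L windows with CAAGGTCA was 2.34% under peaks narrower than 400 bp, 4.15% at 400 to 600 bp, 8.54% at 600 to 800 bp and 2.68% at 800 bp and over. Base composition differed between the classes: median GC was 55% in class L windows, 60.7% in eB, 59.7% in dB and 52.3% in windows without a peak. Within windows of 50 to 60% GC, CAAGGTCA was in 5.39% of class L windows (3.68 to 7.83), 8.89% of eB windows and 1.21% of windows without a peak.

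**Figure D1:**
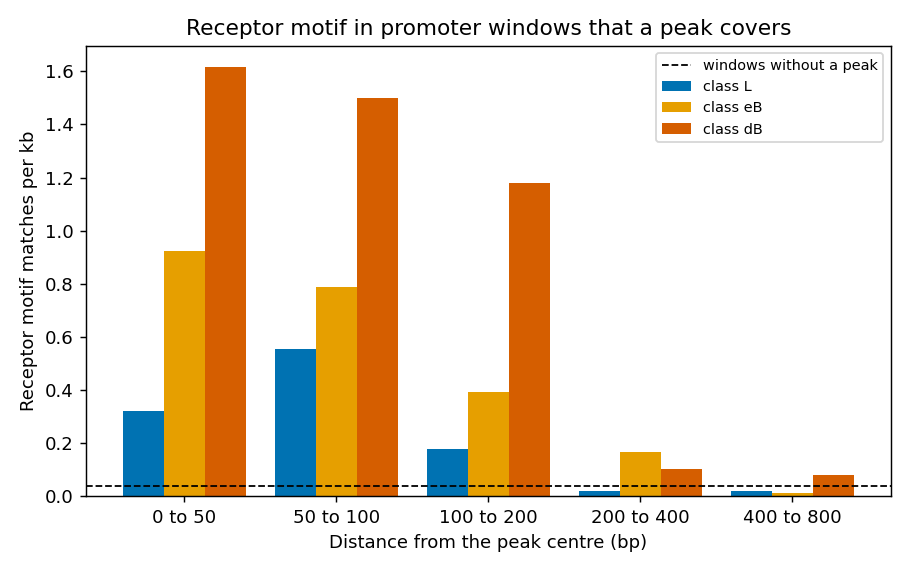
Matches of CAAGGTCA per kb of promoter window (vertical axis) against distance from the peak centre in bp, for windows covered by class L, eB or dB peaks, with the level in windows without a peak as a dashed line. Class L peaks held 0.555 matches per kb at 50 to 100 bp from the centre and 0.0185 at 200 to 400 bp.

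Class L peaks were narrow. Their median width was 540 bp, with quartiles of 397 and 725 bp, against medians of 765 bp for eB, 901 bp for dB and 663 bp for nB. Only 8.25% of class L peaks were over 1000 bp wide, compared with 24.6% of eB, 40.2% of dB and 18.4% of nB peaks. Class L therefore held 65.1% of the peaks but 56.0% of the bases under them, 13674 kb. Its share of the list was 94.2% among peaks under 300 bp, 66.4% at 500 to 750 bp, 39.6% at 1000 to 1500 bp and 11% at 2000 bp and over. The peaks of the list do not overlap one another. The narrowest class L peak, chr13:74601888-74602033, was 145 bp wide and lay outside genes, 202533 bp from the next peak. The other 2 of the narrowest 3 were chr18:76189196-76189345, 149 bp wide, and chr5:116382718-116382870, 152 bp wide. The widest 3 were chr3:86844719-86848137 within Dclk2, a kinase of the doublecortin family (3418 bp), chr11:11941049-11943787 within the imprinted adaptor gene Grb10 (2738 bp), and chr12:12801886-12804604 between genes (2718 bp).

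**Figure D2:**
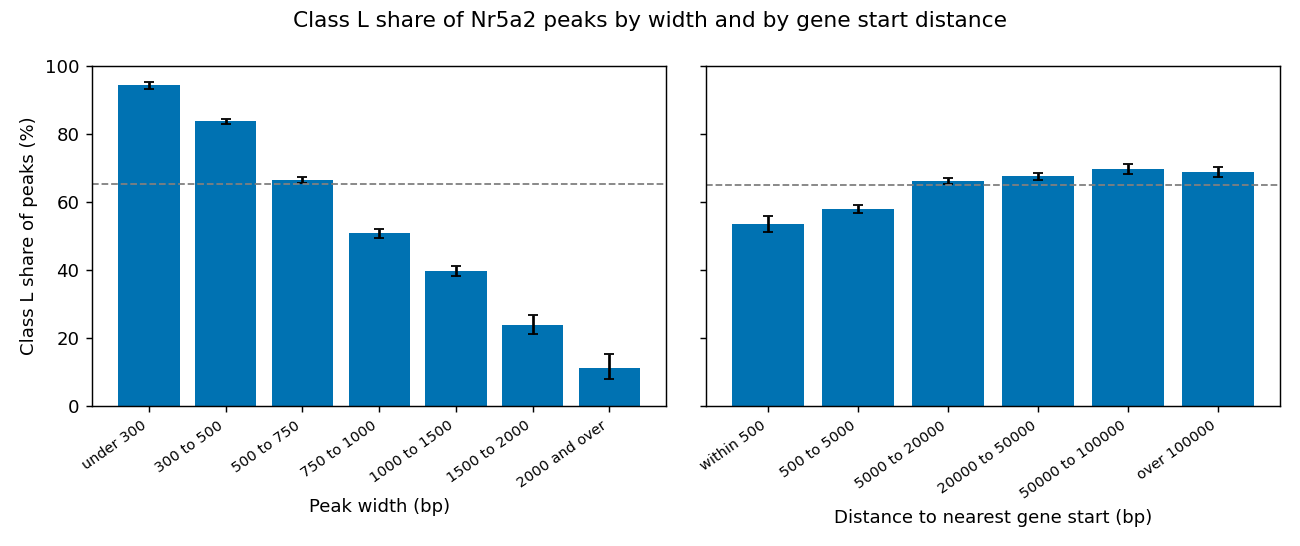
Class L share of peaks in percent (vertical axis) by peak width in bp (left) and by distance to the nearest RefSeq gene start in bp (right), where bars are shares, whiskers 95% Wilson intervals and the dashed line the share over the peaks plotted. The share was 94.2% under 300 bp of width and 11% at 2000 bp and over, and 53.5% within 500 bp of a start and 68.8% beyond 100000 bp.

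Class L peaks were spread along the chromosomes with other class L peaks as their usual neighbours. Between centres, the median distance to the nearest peak of any class was 10399 bp and to the nearest class L peak 16493 bp. Another class L peak lay within 10 kb of 38.9% of them (38.3 to 39.5), and the nearest peak was of class L for 68.7%. For eB, dB and nB peaks the nearest peak was of class L in 61.7%, 58.2% and 57.6%. The class L share varied little with the distance to the next peak, from 64.1% at 1000 to 5000 bp to 69.4% under 1000 bp. Read in order along each chromosome, class L peaks formed 7496 uninterrupted runs with a median of 2 peaks, and 249 runs held 10 or more. The longest runs of eB, dB and nB were 6, 5 and 4 peaks. Class L makes up most of the list, and the part of its number in the length of its runs was not tested.

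The longest run in the shortest stretch was on chromosome 13, chr13:97260424-97802985, where 28 class L peaks followed each other over 543 kb. The only listed gene there was Lncenc1, a long noncoding RNA of ES cells at chr13:97434970-97497664, with 7 class L peaks in its span or within 10 kb and no other class. Without auxin Lncenc1 stood at 1.91 TPM in asynchronous cells and 2.72 TPM in mitosis, and after release at 2.56, 2.21, 1.68, 1.85, 1.67, 1.44 and 1.92 TPM. With auxin the corresponding values were 1.82 and 2.96 TPM, then 2.70, 2.66, 2.36, 1.97, 1.67, 1.63 and 2.09 TPM. Lncenc1 was lower at 60 minutes than in mitosis, while 95% of genes with class L peaks only were above mitosis at that time. The authors' deposited table called Lncenc1 higher. Another run of 28 peaks, chrX:151653631-157817796, covered 6164 kb. A run of 27 peaks, chr19:30837086-32946349, crossed Prkg1, Sgms1, Minpp1 and Atad1, among others. Of these, Sgms1, which encodes a sphingomyelin synthase, held 11 of the class L peaks.

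The densest 100 kb window held 17 class L peaks among 20 peaks, at chr12:86865966-86943715. It contained Irf2bpl, which has no row in the expression table used here. It lay beyond the end of Esrrb (chr12:86361117-86521628), which itself held 11 class L, 2 eB, 3 dB and 1 nB peaks. The next window, chr5:116382718-116470397, had 16 class L peaks among 18 and held Hspb8, a small heat shock protein gene, and Srrm4os, an opposite-strand transcript of the splicing factor gene Srrm4. The RNA libraries were stranded, but whether the counting used strand is not stated, so reads of Srrm4os and Srrm4 may be mixed. Srrm4os averaged 1.78 TPM over the 7 release times without auxin and 1.11 TPM with auxin. Hspb8 averaged 0.891 and 0.700 TPM. Both were called lower in the authors' deposited table. The third window, chr13:40850836-40944377, had 14 class L peaks among 16 in Gcnt2, a branching enzyme of glycan chains. Gcnt2 averaged 3.55 TPM without and 3.20 TPM with auxin, and it was also called lower in the authors' deposited table.

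By chromosome, class L made up 57.8% of peaks on chromosome 11 (56.1 to 59.6) to 69.8% on chromosome 1 (67.9 to 71.5) among autosomes, and 80.6% on the X (77.0 to 83.8). The X had few peaks of any kind, 2.54 class L and 0.610 other peaks per Mb. Autosomes had between 7.10 class L peaks per Mb on chromosome 3 and 14.9 on chromosome 11. Over the 19 autosomes, the class L share had a Pearson r of -0.90 with the density of the other classes, which is partly built in because the other peaks enter both. The density of genes of at least 1 TPM had an r of 0.857 with class L peaks per Mb and 0.912 with other peaks per Mb. These are descriptions over chromosomes that share the same libraries.

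**Figure D3:**
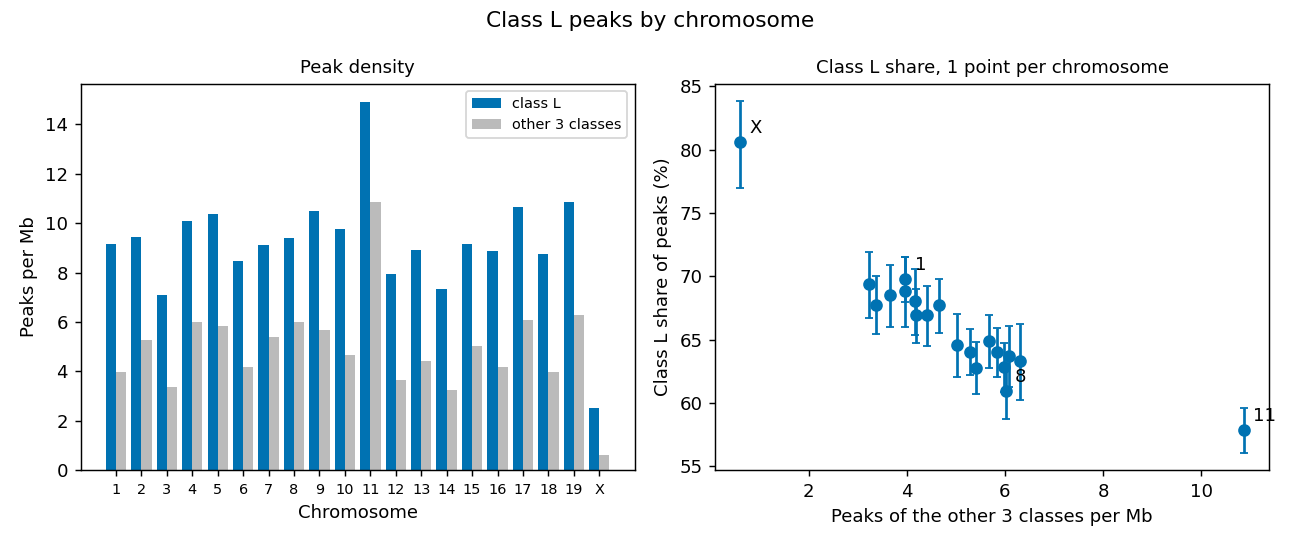
Left, peaks per Mb on each chromosome for class L and for the other 3 classes together. Right, class L share of peaks in percent (vertical axis, not from 0) with 95% Wilson intervals against the density of the other classes, 1 point per chromosome. Chromosome X lies at 80.6% with 0.610 other peaks per Mb, and chromosome 11 at 57.8%.

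Relative to genes, 60.2% of class L peaks lay in a RefSeq gene span, compared with 64.2% of eB, 59.3% of dB and 60.6% of nB peaks. Their median distance to the nearest gene start was 20153 bp, and 15812 bp, 14738 bp and 13998 bp for eB, dB and nB. Chromosome 18 has no start sites in the table used here, so 22222 class L peaks were measured. Only 915 of them (4.12%, 3.86 to 4.39) were within 500 bp of a start, against 9.08% of eB, 4.34% of dB and 3.44% of nB peaks, and 26.4% were more than 50 kb away. The share of class L among peaks was 53.5% (51.2 to 55.9) within 500 bp of a start and 68.8% beyond 100 kb. Width changed little with this distance, since class L peaks within 500 bp of a start had a median width of 525 bp and those over 50 kb away 530 bp.

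To describe the genes nearby, each peak was assigned to every gene of the expression table whose span it overlapped or lay within 10 kb of. This took 57.9% of class L peaks (57.3 to 58.6). Of 8994 genes that had a RefSeq position and reached 1 TPM in any group, 4890 had a class L peak, 2614 of them beside a peak of another class. The 2276 genes with class L peaks only are the cleanest view of the class. The number of assigned peaks depends on gene length, and 1183 of these 2276 genes share a class L peak with another listed gene. The authors' calls in the following come from the same RNA libraries as the TPM values. The sources used here give neither their test nor their threshold.

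The RNA of genes with class L peaks only was near that of all genes. Without auxin their median was 1.13 TPM in mitosis and 3.38 TPM at 60 minutes. Over mitosis and the release times, 45.2% of them were highest at 60 minutes, against 45.6% of all genes and 48.1% of genes with no peak. The median log2 ratio of TPM + 1 between 60 minutes and mitosis was 1.0, against 1.01 for all genes, 0.89 for genes with class L and another class and 1.06 for genes with no peak. Centring each group on its median, which removes a shared rise by construction, turned the ratio to -0.10, against -0.09 for all genes. At least a 2-fold ratio of TPM + 1 was reached by 49.9% of them, and by 50.8% of all genes. The difference with auxin minus without, in log2(TPM + 1) averaged over the 7 release times, had a median of 0.02 (quartiles -0.02 and 0.05), and 0.02 for all genes, -0.00 for class L with another class and 0.03 for genes with no peak. In asynchronous cells the medians were -0.03, -0.04, -0.06 and -0.02. At 60 minutes 81.5% of genes with class L peaks only were lower with auxin, and at 40 minutes 26.9%. All genes did the same, with 80.5% and 28.3%, so these shifts between groups were shared by the whole table.

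According to the authors' deposited table, 135 of the 2276 genes with class L peaks only were called lower with auxin (5.93%, 5.03 to 6.98), where the share among all genes was 9.46%. A further 214 were called higher (9.40%, 8.27 to 10.7), where the background was 8.52%. Among genes with no peak, 2.5% were called lower (1.96 to 3.18) and 11.4% higher (10.2 to 12.7). Among genes with class L and another class, 20.2% were called lower (18.7 to 21.8) and 6.47% higher. Genes with other classes only had 7.84% lower and 6.01% higher, and those with eB only 5.69% lower. The intervals of the share called lower do not overlap between genes with class L peaks only, with no peak and with a second class. That of class L peaks only does overlap those of eB only (4.19 to 7.69) and of other classes only (6.62 to 9.27). Genes with a second class have more than 1 peak by definition, while 1414 of the 2276 have 1, and peak number was not matched. With only peaks inside the gene body counted, 10.1% of genes with class L peaks only were called lower, so the position of their share against the background depends on the distance used. Genes are not independent samples and the intervals cover counting only. A TPM lower with auxin at all 7 release times was found for 3.43% of genes with class L peaks only, where the share over all genes was 5.34%. It was found for 11.8% of genes with class L and another class. At all 7 times 3.30% of genes with class L peaks only were higher with auxin, beside a background of 3.87%.

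By number of class L peaks, the share called lower was smallest for genes with a single peak. In the authors' deposited table, 3.96% of genes with 1 class L peak and no other class were called lower, 7.01% with 2, 11.3% with 3, 11% with 4 and 18.6% with 5 or more. The shares called higher in the authors' deposited table were 8.49%, 9.23%, 13.6%, 11% and 17.1%. Gene span moved with the number, from a median of 19050 bp with 1 peak to 93838 bp with 5 or more. Within 5 groups of gene span, shortest first, 6.86%, 4.06%, 2.09%, 3.28% and 3.50% of genes with 1 peak were called lower in the authors' deposited table. With 3 or more peaks these were 17.2%, 16.2%, 17.1%, 3.08% and 14.2%, so the fourth span group did not show the difference. The latter shares rest on few genes: 5 of 29, 6 of 37, 7 of 41, 2 of 65 and 21 of 148. In the shortest group the interval with 3 or more peaks (7.60 to 34.5) overlaps that with 1 peak (4.43 to 10.5). The shares called higher did not keep one direction within span: with 1 peak they were 6.14%, 5.51%, 4.88%, 7.87% and 23% in the same table, and with 3 or more peaks 3.45%, 5.41%, 9.76%, 18.5% and 16.9%. The median log2 ratio of 60 minutes to mitosis was 1.06 with 1 peak, 0.82 with 3, 0.82 with 4 and 0.43 with 5 or more over all spans. Within the span groups it was 1.32, 1.12, 1.10, 0.96 and 0.58 with 1 peak and 1.38, 1.05, 0.98, 0.97 and 0.40 with 3 or more. Genes with 5 or more peaks were not set apart within span groups, so the part of span in their lower ratio was not tested.

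The shares also differed with distance from the gene start. When the nearest class L peak was within 500 bp of the start, 9.36% of 203 genes with class L peaks only were called lower in the authors' deposited table. At 500 bp to 5 kb this was 7.45% of 577 genes, at 5 to 20 kb 3.91% of 742 genes and beyond 20 kb 1.82% of 329 genes. The shares called higher in the authors' deposited table were 9.36%, 6.93%, 8.22% and 14.6%. For another 425 genes with class L peaks only no start site was used, and they are in none of these groups. Of those, 8.94% were called lower and 10.8% higher in the same table. Genes beyond 20 kb were also long, with a median span of 50597 bp. Genes with class L peaks only were also compared with genes without a peak within span groups, by the authors' deposited table. In the longest group 6.85% against 0.386% (1 of 259 genes) were called lower and 21.2% against 30.9% higher. Median spans there still differed, 92351 and 80476 bp. Genes with other classes only had 2.99% lower and 18.9% higher in that group. In the shortest group the shares called lower were 7.99% and 6.01%. In the groups between, shortest first, they were 6.40% and 2.23%, 4.43% and 1.56%, and 4.06% and 0.615%. Over all genes whose start a class L peak covered, with or without other peaks nearby, 71 of 366 were called lower in the authors' deposited table (19.4%, 15.7 to 23.8). For genes with an eB peak over the start this was 16.6%, with a dB peak 24.4%, and for genes with no peak there 7.51%. Of the 10 such genes with CAAGGTCA in the window, 4 were called lower in the authors' deposited table: Zfp57, Scpep1, Ttll6 and Tfpi. With the shorter AAGGTCA, a group that includes these 10, the share was 21.4% of 42 genes, and without it 19.1% of 324. Zfp57, which protects imprints, was at 13.2 TPM at 60 minutes without auxin and 8.95 TPM with it.

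**Figure D4:**
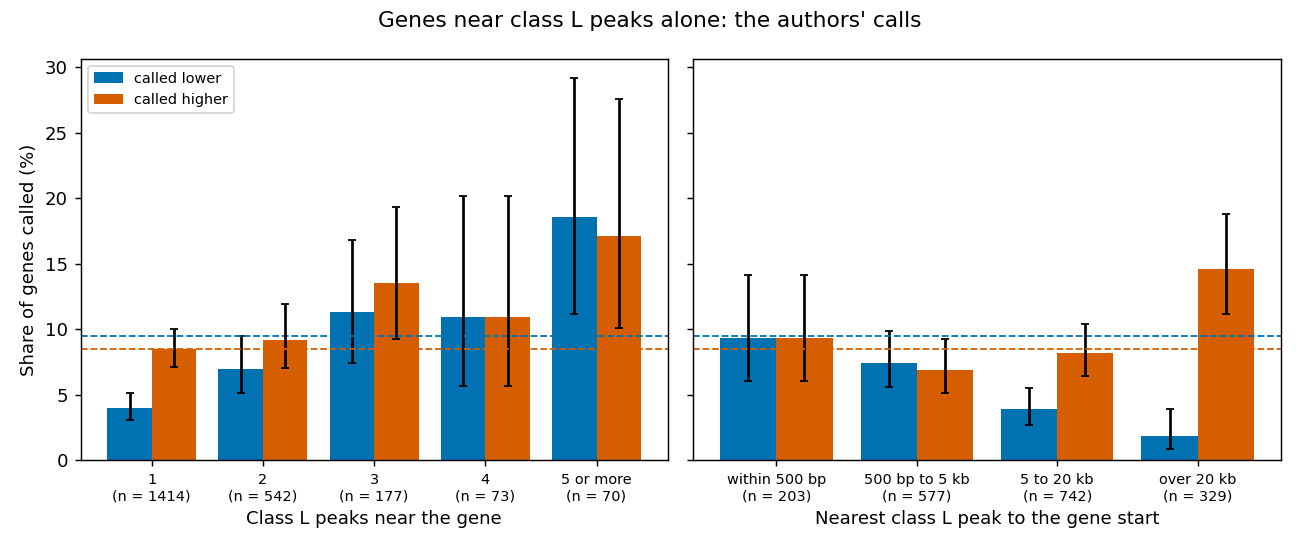
Share of genes with class L peaks only that the authors' deposited table calls lower (blue) or higher (orange) with auxin, by number of class L peaks (left) and by distance of the nearest to the gene start (right), with 95% Wilson intervals. Dashed lines mark the shares over all genes, 9.46% lower and 8.52% higher. The right panel leaves out 425 genes for which no start site was used. The share called lower is 3.96% with 1 peak and 18.6% with 5 or more.

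Of the 135 genes with class L peaks only that the authors' deposited table calls lower, 2 were on the naive list, Klf2 and Klf5. Klf2, a naive pluripotency factor at chr8:72319062-72321654, had 4 class L peaks, 2 on each side, of 300 to 484 bp and 791 to 7670 bp from the gene. Without auxin Klf2 stood at 11.7 TPM in asynchronous cells and 2.58 TPM in mitosis, then at 3.36, 4.44, 7.37, 13.4, 14.4, 14.9 and 12.1 TPM from 20 to 120 minutes. With auxin it stood at 11.1 and 2.32 TPM, then at 3.16, 3.11, 5.88, 10.5, 11.9, 12.0 and 7.40 TPM. Klf2 was lower with auxin at all 7 release times, by 0.32 on average (log2 scale, SD over the 7 times 0.17), but by only 0.06 in asynchronous cells. Klf5, its relative at chr14:99298691-99313412, had a single class L peak 5439 bp away, 361 bp wide. Without auxin Klf5 stood at 8.71 TPM in asynchronous cells and 2.82 TPM in mitosis, then at 3.28, 3.20, 5.02, 10.2, 13.1, 14.5 and 13.9 TPM. With auxin it stood at 5.15 and 2.10 TPM, then at 2.59, 2.67, 4.99, 9.81, 10.5, 10.6 and 10.1 TPM. The arms of Klf5 were near each other at 40 and 50 minutes and apart in asynchronous cells, by -0.66 on the log2 scale.

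Bcat1, the cytosolic enzyme of branched-chain amino acid breakdown, at chr6:144993835-145076157, had 8 class L peaks, 6 of them in its span, and none of another class. Without auxin Bcat1 stood at 3.35 TPM in asynchronous cells and 2.41 TPM in mitosis, then at 2.33, 2.0, 1.65, 1.71, 2.05, 3.35 and 2.73 TPM. With auxin it stood at 1.87 and 1.72 TPM, then at 1.57, 1.61, 1.37, 1.20, 1.31, 2.24 and 1.91 TPM. Every stage was lower with auxin, mitosis included, and the release mean difference was -0.32 (SD over 7 times 0.10). Idh2, the mitochondrial isocitrate dehydrogenase, at chr7:80094845-80118608, had 5 class L peaks, 4 in its span. Without auxin Idh2 stood at 1.97 TPM in asynchronous cells and 1.48 TPM in mitosis, then at 1.54, 1.43, 1.19, 1.66, 2.39, 2.13 and 1.17 TPM. With auxin it stood at 0.989 and 0.939 TPM, then at 0.864, 0.944, 1.0, 1.25, 1.43, 1.28 and 0.753 TPM. It too was lower at every stage, by -0.34 over the release.

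Zfp296, a zinc finger gene of ES cells at chr7:19577287-19580656, had 5 class L peaks, 1 of them over its start, and some are shared with a neighbouring gene. It was highest at 50 minutes, with 9.28 TPM without and 8.0 TPM with auxin, and was lower with auxin at all 7 times (-0.28, SD 0.17). Car2, a carbonic anhydrase gene with a single class L peak 6537 bp away, averaged 2.35 TPM without and 1.59 TPM with auxin after release and was lower at all 7 times. Ripply1 and Mep1b were also lower at all 7 times, at low levels: Ripply1 peaked at 1.81 TPM at 60 minutes without auxin, and Mep1b had at most 1.25 TPM. Snhg15, Irf2bp2 and Zfp281 were called lower in the authors' deposited table with uneven differences. Snhg15 was lower at 4 of the 7 times and its SD over the times, 0.99, exceeded its mean difference of -0.43. Without 40 minutes that difference was -0.12, and that of Zfp281 went from -0.26 to -0.17 without 90 minutes.

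Other genes with class L peaks only were called higher in the authors' deposited table. Bcl11a, a transcription factor of blood and brain development at chr11:24076564-24173558, had 2 class L peaks in its span. Without auxin Bcl11a stood at 1.02 TPM in asynchronous cells and 0.376 TPM in mitosis, then at 0.359, 0.315, 0.314, 0.429, 0.872, 1.48 and 0.967 TPM. With auxin it stood at 2.12 and 0.571 TPM, then at 0.506, 0.553, 0.568, 0.647, 1.05, 2.19 and 1.44 TPM. All 9 stages were higher with auxin. Hmox1, the haem oxygenase induced by oxidative stress, had a single class L peak and reached 16.9 TPM without and 23.6 TPM with auxin at 120 minutes. It was higher with auxin at 6 of the 7 release times. Cth, an enzyme of cysteine synthesis, and G2e3, a ubiquitin ligase, were higher at all 7 times by 0.21 and 0.20. In asynchronous cells Cth was lower with auxin, at 3.01 TPM against 3.68 TPM. Efcab12 was higher at 6 of 7 by 0.21.

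**Figure D5:**
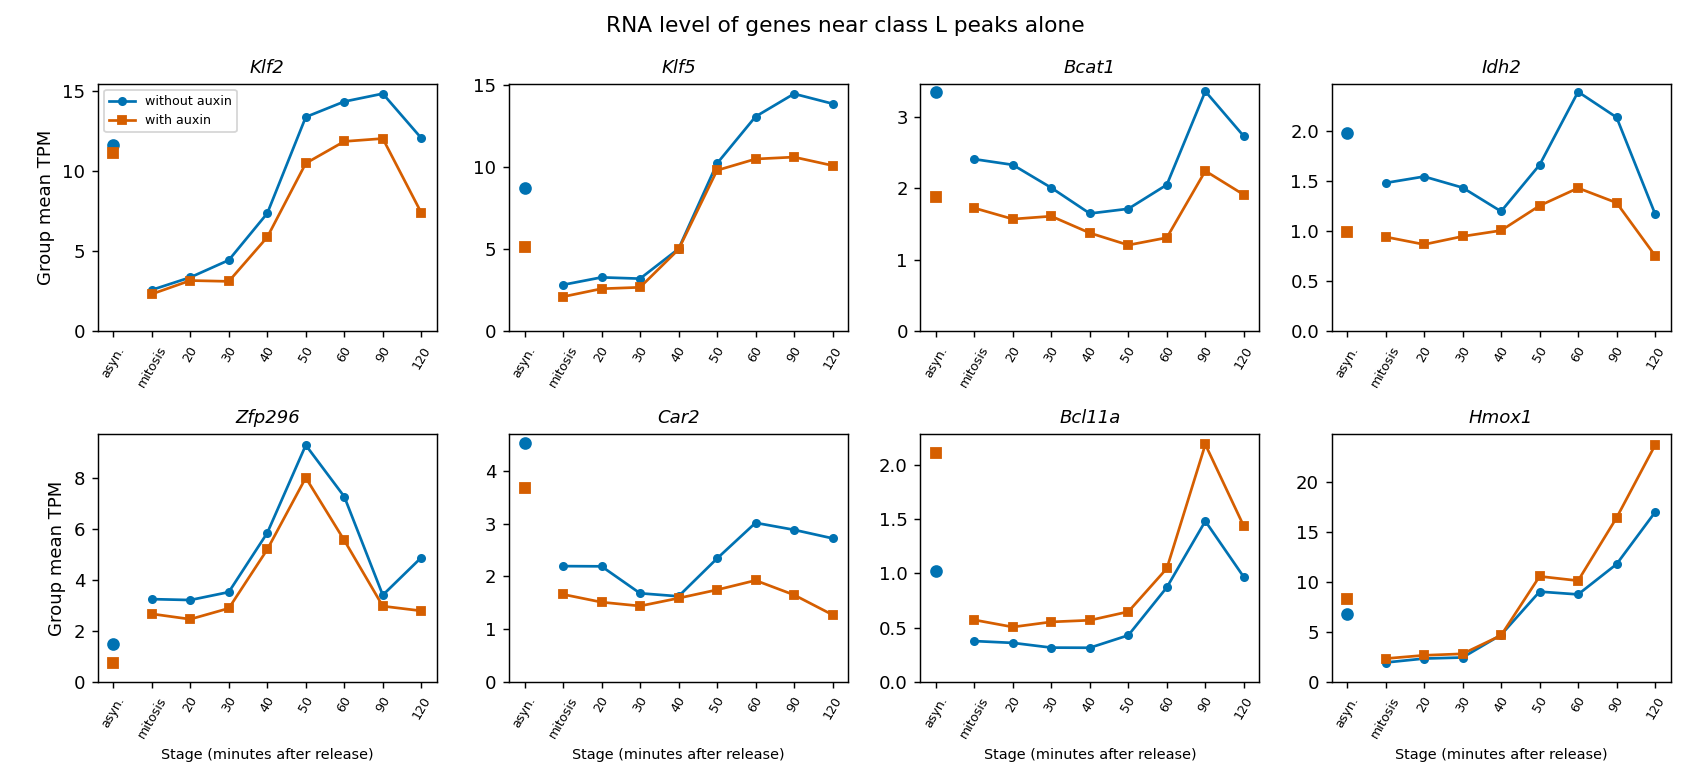
Authors' group mean TPM (vertical axis, from 0, each panel on its own scale) by stage for 8 genes with class L peaks only, without auxin (circles) and with auxin (squares), where the single points are asynchronous cells and the lines run from mitosis to 120 minutes. Klf2 reaches 14.9 TPM without and 12.0 TPM with auxin at 90 minutes, and Hmox1 16.9 and 23.6 TPM at 120 minutes.

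The range of release patterns beside class L peaks was wide. Dnajb14, a chaperone cofactor, had the highest log2 ratio of 60 minutes to mitosis, 3.35, with 0.412 TPM in mitosis and 13.4 TPM at 60 minutes. Mybl1, Atp6v0b and Snhg6 had ratios of 3.01 to 3.13. At the other end Nedd4, a ubiquitin ligase, was at 8.81 TPM in mitosis and 4.90 TPM at 60 minutes, and Xrcc5, a DNA repair gene, at 3.23 and 1.91 TPM. The genes of highest mean TPM were Tra2a, Nasp, Ybx1, Taf1d and Rplp2, which encode splicing, histone-binding, RNA-binding, transcription and ribosome proteins, and none of the 5 was called responsive in the authors' deposited table. Tra2a had 5 class L peaks and stood at 12.5 TPM in mitosis and 49.4 TPM at 60 minutes without auxin, and at 12.9 and 46.8 TPM with it.

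The genes with the most class L peaks were long. Etl4, with a span of 900329 bp, had 29, Msi2 23, Gse1 22, Dst and Ptprg 18 each, Magi1 17, Rai14 and Pitpnc1 16 each, and Gcnt2 and Clybl 15 each. Etl4, Msi2, Gse1, Rai14, Pitpnc1 and Gcnt2 were called lower in the authors' deposited table, and the other 4 not responsive. All 10 also have a peak of another class, and 20.2% of such genes were called lower. Msi2, an RNA-binding protein of stem cells, was at 5.21 TPM in asynchronous cells without auxin and 4.08 TPM with it, and lower at all 7 release times. Gse1 and Pitpnc1 were lower at only 3 and 4 of the 7 times, and the mean difference of Pitpnc1 was 0.03, above 0 despite its call. The differences of Etl4 (-0.04) and Gse1 (-0.05) were small and moved by more than 1.5 times when single times were left out, Etl4 to between -0.06 and -0.02 and Gse1 to -0.02 without 60 minutes. Of the 10 genes of highest TPM with a class L peak over the start, Pml, Hmces, Tet1 and Ldb1 were called lower in the authors' deposited table, whereas Nasp, Hspd1, Cd81, Pmm1, Cox6a1 and Uba2 were not. Over all genes with a class L peak at the start the share called lower was 19.4%. Pml, which organises nuclear bodies, was at 21.3 TPM at 120 minutes without auxin and 17.6 TPM with it.

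Class L peaks were near most naive pluripotency genes, a list whose calls in these data were known when it was chosen. Of 39 measured genes of that list, 36 had a class L peak within 10 kb, where the share over all genes was 54.4%. The peaks summed to 98 over these genes, with a peak shared by neighbours, such as Dppa2 and Dppa4, counted for each. For 29 of the 36 a peak of another class was also present, where this held for 2614 of all 4890 genes with a class L peak. Of the 39, 0 had no peak of any class, against 2523 of all 8994 genes. Nearness to this list was therefore not shown to be particular to class L. Of the 36, 28 were called lower and 1 higher in the authors' deposited table, against 9.46% lower over all genes and 13.6% over all genes with a class L peak. Of all 39 measured genes of the list 30 were called lower in the authors' deposited table, so the share was about the same without regard to class L. For the 36 the median difference after release was -0.20. The 7 with class L peaks only were Dppa3, Dppa4, Gbx2, Klf2, Klf5, Lin28a and Myc. Of these, Klf2 and Klf5 were called lower and Lin28a higher in the authors' deposited table, and their median difference was -0.03. Gbx2 had 4 class L peaks and was at 3.28 TPM without and 3.44 TPM with auxin at 50 minutes. Tfcp2l1, with 5 class L peaks and others, was at 3.28 TPM at 60 minutes without auxin and 1.78 TPM with it. Jam2, with 3 class L peaks and others, was at 7.19 TPM in asynchronous cells without auxin and 2.68 TPM with it. Nanog had 1 class L peak in its span and 1 dB peak in its span or within 10 kb. It was at 7.02 TPM without and 4.35 TPM with auxin at 60 minutes.

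In the list of formative and primed genes, 10 of 11 measured genes had a class L peak, 4 of them called lower and 2 higher in the authors' deposited table. Beside this and the next lists stand the shares over all genes with a class L peak, 13.6% lower and 7.83% higher. Etv5, an FGF-responsive factor, and Tcf7l1, a repressor in the Wnt pathway, had 11 and 14 class L peaks. Etv5 was at 14.9 TPM at 60 minutes without auxin and 11.5 TPM with it, and Tcf7l1 averaged 6.11 TPM without and 6.63 TPM with auxin after release. Dnmt3b and Dnmt3l, a de novo DNA methyltransferase and its cofactor, had class L peaks only, and the authors' deposited table calls Dnmt3b higher. Of the axon guidance and adhesion list, 9 of 11 genes had a class L peak and 8 of the 9 were called lower in the authors' deposited table, with a median difference of -0.16. All 8 also had a peak of another class, and Jam2 among them is on the naive list too. The 1 gene with class L peaks only, Sema6a, was not called lower (0.03). Of all 11 genes of the list 8 were called lower. Of 21 cholesterol and lipid genes 11 had a class L peak and 0 were called in the authors' deposited table. Of 14 Wnt pathway genes 10 had one, 6 of them class L only (Ctnnb1, Dvl2, Fzd5, Gsk3b, Lrp6 and Tcf7l2), with 1 of the 10 called lower and 1 higher in the authors' deposited table.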

How the data were processed

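RNA-seq and Nr5a2 ChIP-seq of mouse ES cells were deposited as 2 tables. Expression values are TPM, deposited by the authors as 1 mean per group of 3 libraries. STAR, RSEM, DESeq2, Bowtie2, MACS2 and the mm10 build are named without versions, per the submitters' processing notes. TPM keeps no depth, so that of each library is unknown. Peaks have a start, an end and a class code in the deposited list, in other words region coordinates and no signal, and whether starts count from 0 or 1 is not stated. How peaks were merged over libraries is not given in the sources used here.

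Genes were matched to RefSeq positions (GRCm38.p6) for 13952 of 13957 symbols, 13869 by current and 83 by older symbols. Distances run between peak centres, or from a centre to a gene start. Peaks were assigned to genes within 10 kb, log2(TPM + 1) was used, and genes needed 1 TPM in at least 1 group. Differences on that scale understate changes of low genes. Shares have 95% Wilson intervals. No per-library values were at hand, so no test was run. Motifs were searched in 32619 promoter windows, none of them on chromosome 18. Python 3.11.15, pandas 2.3.3, numpy 2.4.6 and scipy 1.17.1 were used, and scripts were tested on simulated data. The members, gene lists and measures were chosen with earlier results of these data known.

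Named genes were, by rule, the 10 with most class L peaks; among genes with class L peaks only, the 10 called lower and 6 called higher with the most extreme differences, the 5 highest and 3 lowest in ratio at 60 minutes and the 5 of highest TPM; naive and formative genes with a class L peak; and the 10 of highest TPM with such a peak over the start. The 3 widest, 3 narrowest, 3 longest runs and 3 densest windows were named among peaks, with listed genes in them. Some genes that the rule selects are not reported here. Genes with a printed sequence, and Zfp57, Ttll6, Tfpi, Pim1, Mir290a, Cdh1, Pkp3, Sgk1, Chst3 and Jmjd1c, were named after their values were seen. Lists for nuclear receptors, coregulators, LIF, FGF, Wnt, TGF-beta, chromatin, lipid and cell cycle genes were also counted. Alternatives varied the gene distance, filter, pseudocount, scaling, times and genes.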

Additional observations from a re-analysis of the deposited data

How the results depend on the processing

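No paired analysis was possible because the deposited expression table holds 1 mean per group, and for the same reason no replicate was left out. Of 49 alternatives of the main results 16 kept the value within its 95% interval (counts within 1.5 times), 32 moved it and 1 turned its sign. Of 1220 alternatives of 122 named genes, 1209 moved the auxin difference by no more than its SD over the release times and 11 by more. The sign changed in 16 of them, for 10 genes, 0 of which the authors' deposited table calls. Of 71 called genes, 9 moved by more than 1.5 times when 1 time was left out. The share of class L peaks with another in reach was 25.2% within 5 kb and 60.6% within 25 kb. The share near a listed gene was 44.7% in gene bodies, 49.6% within 2.5 kb and 75.9% within 50 kb. The share of genes with class L peaks only called lower in the authors' deposited table was 10.1% for gene bodies, 8.24% within 2.5 kb, 4.26% within 50 kb and 4.74% with no filter on low values. The share called higher was 12.1% within 50 kb, 7.54% with no filter and 13.4% among genes that share no class L peak, an alternative chosen after seeing the data. The median auxin difference, in log2, was 0.015 for gene bodies, 0.015 within 2.5 kb, 0.029 within 50 kb, 0.010 with no filter, 0.029 with a pseudocount of 0.1, 0.013 after quantile normalization and 0.011 after centring. It was 0.025, 0.012, 0.0085, 0.021, 0.030 and 0.015 without 20, 30, 40, 50, 60 and 120 minutes. It was 0.026 for genes that share no peak and 0.013 with equal weight for 5 span groups, also chosen after seeing the data. The median log2 ratio at 60 minutes was 0.89 for gene bodies, 0.96 within 2.5 kb, 0.55 with no filter, 1.5 with a pseudocount of 0.1, 0.014 after quantile normalization and -0.10 after centring. Those 2 scalings remove a rise shared by all genes, whose median was 1.01 before, 0.02 after quantile normalization and -0.09 after centring. They also turned the asynchronous median of genes with class L peaks only from -0.03 to 0.02 and 0.01.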

Other observations

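Further lists were counted in the same way, beside 13.6% lower and 7.83% higher over all genes with a class L peak. Of 18 nuclear receptor genes of at least 1 TPM, 13 had a class L peak and 4 of these were called lower and 1 higher in the authors' deposited table. Of 13 coregulator genes, 13 had a class L peak, with 1 called lower and 3 higher. In the LIF and STAT3 pathway 9 of 11 genes had one, and 5 of the 9 were called lower and 1 higher. In the FGF and ERK pathway 8 of 14 had one, with 4 called lower and 1 higher. In the TGF-beta and BMP pathway 13 of 20 genes had one, with 3 called lower and 2 higher. Among chromatin regulators it was 18 of 27, with 5 lower and 4 higher. Of mitotic genes 9 of 17 had a class L peak and 2 were called lower, and of G1/S genes 9 of 20, with 3 lower and 1 higher. All of these calls are from the authors' deposited table, made on the same libraries. The lists share genes, whose calls are counted in each. Gbx2, Klf4, Lifr, Socs3, Stat3 and Tfcp2l1 of the LIF list are also on the naive list. Etv4, Etv5 and Spry4 of the FGF list are also on the formative list.

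The most isolated class L peaks were on chromosome X. The peak chrX:108893291-108893509, 218 bp wide, lay 1905378 bp from the next peak, which was also of class L. The densest region outside the first 3 windows was beside the kinase gene Pim1 on chromosome 17, with 14 class L peaks among 22. The Mir290a cluster on chromosome 7, a source of ES cell microRNAs, had 13 among 21, and Cdh1, the E-cadherin gene, 13 among 17. These were picked out of windows tied at 13 class L peaks. Others of that number held Pkp3 (13 among 14), Sgk1 (13 among 16), Chst3 (13 among 14) and Jmjd1c (13 among 16).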
